A study of Homo sapiens with 2 samples.

Results

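The genes examined here make cholesterol and fatty acids, or regulate and handle them. They were chosen by name, and all 34 were found in the gene tables of both libraries, among 23352 genes in all. The gene chosen under the older symbol SC4MOL appears in those tables as MSMO1. The study used A673 cells, an established human Ewing sarcoma line driven by the fusion protein EWS/FLI1, grown in medium with 10% FBS (fetal bovine serum). The library whose title begins with 813, as in the RUNX3 hairpin sh813, is called the 813 library here, and the library whose title begins with NT, as in the non-target hairpin shNT, the NT library; each title names a pool. Both pools were transduced with lentivirus made in HEK 293T cells and selected with 0.4 µg/mL puromycin for 6 days, so the NT library carries a hairpin vector too. For both pools 72 hours is given for virus collection and 6 µg/mL for polybrene. The title and the shRNA characteristic contradict each other in both libraries. The libraries are therefore called by their titles, and taking the characteristic instead turns every direction round. With 1 library in each group no difference was tested.

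RUNX3, the targeted Runt-domain transcription factor, had 15.8 CPM in the 813 library and 59.9 CPM in the NT library, a log2 fold of -1.92 (-2.09 to -1.76), which goes with the titles. The depth over genes was 23342660 read pairs in the 813 library, against 24326135 in the NT library. CPM are counts per 1e6 of the TMM-scaled library size, log2 folds set the 813 library over the NT library, and brackets after a log2 fold give its exact 95% interval, which covers counting error only. Where a bracket holds 3 values, they are the log2 fold and the ends of its interval. All 7 Ewing sarcoma markers were measured, with summed levels of 6405 CPM in the 813 library and 5842 CPM in the NT library, most of it from CD99 and CCND1. The markers went both ways: CCND1 had 1835 CPM in the 813 library and 1193 CPM in the NT library, while NKX2-2 had 102 CPM in the 813 library and 275 CPM in the NT library. NR0B1 had 123 CPM in the 813 library and 266 CPM in the NT library, and STEAP1 had 15.6 CPM in the 813 library and 27.8 CPM in the NT library. Of 4 hepatocyte markers, ALB, SERPINA1 and TTR were at 0 pairs in both libraries. Of 5 adipocyte markers only FABP4 reached 1 CPM, with summed levels of 3.11 CPM in the 813 library and 4.01 CPM in the NT library. Of 5 leukocyte markers, 2 were measured and CD3E was at 0 pairs in both libraries (summed levels 12.9 CPM in the 813 library and 12.6 CPM in the NT library). All 5 fibroblast markers were measured, led by COL1A2, with summed levels of 3181 CPM in the 813 library and 2596 CPM in the NT library. These markers went both ways too. COL1A2, PDGFRB and LUM were higher in the 813 library. COL1A1 (163 CPM in the 813 library and 202 CPM in the NT library) and DCN were higher in the NT library. The part of the fibroblast markers in the results was not tested. In these bulk libraries fewer cells of a type and less RNA per cell cannot be told apart.

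Cells build cholesterol from acetyl-CoA through mevalonate, the prenyl diphosphates, squalene and lanosterol, and they build fatty acids from the same acetyl-CoA through malonyl-CoA. Both routes are switched on by the SREBP transcription factors, encoded by SREBF1 and SREBF2, which are held in the endoplasmic reticulum by INSIG proteins and carried by SCAP to the Golgi for cleavage when sterols run low. Proliferating cells draw on both routes for new membrane.

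Most of these genes had lower levels in the 813 library. Of the 14 with a mean level of 200 CPM or more, all had log2 folds below 0 with TMM scaling. That range was drawn after the values were seen, and 74.9% of all 1105 such genes lay below 0. By the 1.5-fold rule defined below 7 of the 14 were lower, against 11% of the 1105. SREBF1 and FADS1, which are among the 14, were above 0 with plain total counts and with the authors' RPKM. Both were also above 0 with the 20 most abundant genes left out of the library size. The 34 genes together held 1.37% of the pairs in the 813 library (Clopper-Pearson 1.36 to 1.37) and 1.84% in the NT library (1.83 to 1.84). FADS2, SCD and FASN alone held 0.768% of the pairs in the 813 library and 1.04% in the NT library. All 34 genes reached 1 CPM in both libraries. Their median log2 fold was -0.42, against 0.01 over the 12254 genes counted as measured, which reached 1 CPM in either library. Log2 folds lay below 0 in 24 genes and above 0 in 10, and the interval left 0 outside in 23 of the 24 and in 6 of the 10. Over all 12254 measured genes, 6038 lay below 0 and 6216 above it. The interval left 0 outside in 4249 of the 6038 and in 4217 of the 6216.

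A gene was called by the 2-fold rule when it differed 2-fold or more with its interval wholly beyond 1.5-fold, and by the 1.5-fold rule when it differed 1.5-fold or more with its interval wholly beyond 1.2-fold. By the 2-fold rule 4 genes were lower in the 813 library (MVD, FDPS, TM7SF2 and ACSS2), against 3.48% of all measured genes, and 2 were higher (SOAT1 and LPIN1), against 8.13%. In hg19 the 6 genes lie at chr16:88718348-88729495 (MVD), chr1:155278539-155290457 (FDPS), chr11:64879341-64883707 (TM7SF2), chr20:33462766-33515769 (ACSS2), chr1:179262849-179327814 (SOAT1) and chr2:11886740-11967533 (LPIN1). By the 1.5-fold rule 11 of the 34 genes were lower, or 32.4%, against 9.85% of all measured genes. On the other side 4 of the 34 (HMGCS1, CYP51A1, SOAT1 and LPIN1), or 11.8%, were higher by the 1.5-fold rule, against 17.5% of all measured genes. The 4 higher genes had mean levels of 14.3 to 42.1 CPM over both libraries, and the 11 lower genes 107 to 2858 CPM, so the ranges did not overlap. All measured genes leaned the same way. Under 50 CPM 22.4% of them were higher by the 1.5-fold rule and 9.48% lower, and at 200 CPM or more 4.71% were higher and 11% lower.

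**Figure D1:**
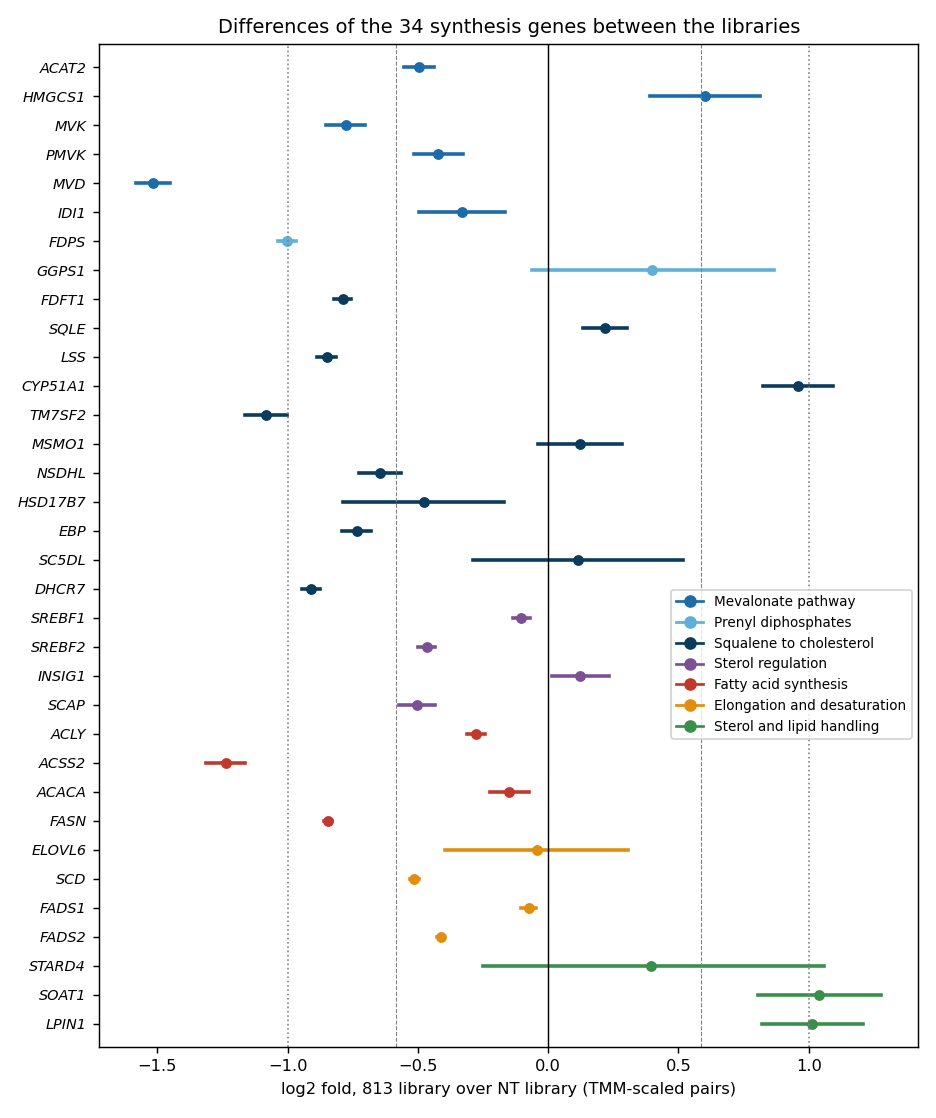
Log2 fold of each of the 34 genes, 813 library over NT library, grouped by role; points are log2 folds, bars the exact 95% counting intervals, dashed lines 1.5-fold and dotted lines 2-fold. MVD lies farthest to the left at -1.52 and SOAT1 farthest to the right at 1.04.

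In the mevalonate pathway 2 of the 6 genes, a decarboxylase and a kinase, were lower by the 1.5-fold rule, against 9.85% of all measured genes. HMGCS1, described below, was higher, against 17.5%. MVD, mevalonate diphosphate decarboxylase, which makes isopentenyl diphosphate, had 109 CPM in the 813 library and 312 CPM in the NT library, a log2 fold of -1.52 (-1.58 to -1.45). MVK, mevalonate kinase, had 95.9 CPM in the 813 library and 164 CPM in the NT library (log2 fold -0.78, -0.85 to -0.70). PMVK, phosphomevalonate kinase, which acts between MVK and MVD, had 67.7 CPM in the 813 library and 90.7 CPM in the NT library, a log2 fold of -0.42 (-0.52 to -0.33) that passed neither rule and was 0.02 with the trend on GC content and length removed. Neighbouring steps of the pathway therefore differed by unlike amounts between the libraries.

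The entry of the pathway was split. ACAT2, the cytosolic acetoacetyl-CoA thiolase, had 185 CPM in the 813 library and 261 CPM in the NT library, with a log2 fold of -0.50 (-0.55 to -0.44). HMGCS1, HMG-CoA synthase, which uses its product, had 19.7 CPM in the 813 library and 13.0 CPM in the NT library, a log2 fold of 0.60 (0.39 to 0.81), and was higher by the 1.5-fold rule. That call of HMGCS1 ended with DESeq2 size factors (0.58), with upper-quartile factors (0.57) and with the trend on GC content and length removed (0.32). IDI1, the isopentenyl diphosphate isomerase, had 22.9 CPM in the 813 library and 28.7 CPM in the NT library (log2 fold -0.33, -0.50 to -0.17). The last exon record of ACAT2 shares bases with TCP1, and without its shared records ACAT2 had a log2 fold of -0.50.

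Of the 2 prenyl diphosphate synthases, the abundant FDPS was lower by the 2-fold rule, against 3.48% of all measured genes, and none was higher, against 8.13%. FDPS, farnesyl diphosphate synthase, which feeds both sterols and protein farnesylation, had 434 CPM in the 813 library and 870 CPM in the NT library, a log2 fold of -1.003 (-1.04 to -0.97). The fold of FDPS sat at the 2-fold line, and its 2-fold call ended with plain total counts (-0.87). The sum of its exon records had a log2 fold of -0.997, short of 2-fold. Its last exon record shares bases with RUSC1-AS1, and without that record the log2 fold was -0.99. GGPS1, geranylgeranyl diphosphate synthase, had 96 pairs in the 813 library and 69 in the NT library, a log2 fold of 0.40 whose interval (-0.06 to 0.87) included 0.

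From squalene to cholesterol, 6 of the 11 enzymes were lower by the 1.5-fold rule, against 9.85% of all measured genes, and 1 was higher, against 17.5%. The group's median log2 fold was -0.64. With the trend on GC content and length removed EBP and NSDHL ended as lower calls and HSD17B7 entered. FDFT1, squalene synthase, the first committed step to sterols, had 509 CPM in the 813 library and 879 CPM in the NT library (-0.79, -0.82 to -0.76). LSS, lanosterol synthase, had 371 CPM in the 813 library and 668 CPM in the NT library (-0.85, -0.89 to -0.81). DHCR7, the reductase of the last step, had 467 CPM in the 813 library and 877 CPM in the NT library (-0.91, -0.94 to -0.88). By RPKM these had the highest levels of the group in both libraries, together with EBP, the sterol isomerase. EBP had 167 CPM in the 813 library and 278 CPM in the NT library (-0.74, -0.79 to -0.68).

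TM7SF2, a sterol reductase, was the only gene of this group past the 2-fold rule. That is 9.09% lower, against 3.48% of all measured genes, and none higher, against 8.13%. TM7SF2 had 75.7 CPM in the 813 library and 160 CPM in the NT library, a log2 fold of -1.08 (-1.16 to -1.002). That call ended with plain total counts, where its log2 fold was -0.95. NSDHL, a sterol dehydrogenase, had 83.7 CPM in the 813 library and 131 CPM in the NT library (-0.64, -0.73 to -0.56), and its 1.5-fold call ended with plain total counts (-0.51). CYP51A1, the lanosterol demethylase, stood on the other side, with 55.6 CPM in the 813 library and 28.6 CPM in the NT library and a log2 fold of 0.96 (0.82 to 1.09). SQLE, squalene epoxidase, which acts between FDFT1 and LSS, had 104 CPM in the 813 library and 89.3 CPM in the NT library, with a log2 fold of 0.22 (0.13 to 0.30). SQLE passed neither rule, and its log2 fold was 0.0001 with the trend on GC content and length removed. Of the group, CYP51A1 alone was higher by the 1.5-fold rule. The other 3 genes, like SQLE, passed neither rule. MSMO1, the methyl sterol oxidase, had 28.0 CPM in the 813 library and 25.7 CPM in the NT library (0.12, -0.04 to 0.28). HSD17B7, a ketoreductase, had 6.38 CPM in the 813 library and 8.87 CPM in the NT library (-0.48, -0.79 to -0.17). SC5DL, a sterol desaturase, was scarce, with 113 pairs in the 813 library and 99 in the NT library (0.11, -0.29 to 0.52), and its log2 fold was -0.19 with that trend removed.

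Promoter sequences are shown for the genes past the 2-fold rule that have 1 start in the RefSeq table (GRCh38.p14), because sterol genes are known for CCAAT boxes, bound by NF-Y, and GGGCGG boxes, bound by Sp1, beside their SREBP sites. Each run is the 250 bases before the start, 5′ to 3′ on the gene's strand, and capitals mark CCAAT or its reverse complement ATTGG. The windows are chr16:88663092-88663341 (minus strand) for MVD, chr1:155308616-155308865 (plus) for FDPS, chr11:65111622-65111871 (plus) for TM7SF2 and chr1:179293547-179293796 (plus) for SOAT1.
MVD: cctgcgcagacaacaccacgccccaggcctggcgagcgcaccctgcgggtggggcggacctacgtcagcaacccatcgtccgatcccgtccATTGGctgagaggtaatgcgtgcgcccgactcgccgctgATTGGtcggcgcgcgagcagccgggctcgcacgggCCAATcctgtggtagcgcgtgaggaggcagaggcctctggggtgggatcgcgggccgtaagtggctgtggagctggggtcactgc
FDPS: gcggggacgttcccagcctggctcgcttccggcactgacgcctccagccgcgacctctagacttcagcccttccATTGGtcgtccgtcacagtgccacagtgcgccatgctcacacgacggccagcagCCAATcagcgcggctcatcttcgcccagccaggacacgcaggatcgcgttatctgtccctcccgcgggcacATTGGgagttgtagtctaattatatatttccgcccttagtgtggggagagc
TM7SF2: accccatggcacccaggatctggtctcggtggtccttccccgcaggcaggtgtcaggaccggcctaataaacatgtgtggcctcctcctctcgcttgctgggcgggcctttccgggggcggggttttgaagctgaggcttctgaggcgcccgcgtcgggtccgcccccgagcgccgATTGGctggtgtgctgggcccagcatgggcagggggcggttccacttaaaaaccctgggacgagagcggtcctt
SOAT1: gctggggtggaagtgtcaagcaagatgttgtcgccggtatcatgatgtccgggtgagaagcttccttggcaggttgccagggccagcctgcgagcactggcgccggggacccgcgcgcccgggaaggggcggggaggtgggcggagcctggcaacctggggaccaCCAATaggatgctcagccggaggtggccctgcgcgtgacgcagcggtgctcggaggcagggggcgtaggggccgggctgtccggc
MVD and FDPS, both lower in the 813 library, had 3 boxes each, and TM7SF2, also lower, and SOAT1, which was higher, had 1 each.

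Over the 300-base windows of the table (250 before and 50 after each start, either strand, any start of a gene), 30 of the 34 genes had a window; ACAT2, FDFT1, SQLE and FASN had none. CCAAT was in 23 of the 30, or 76.7%, and in 39.7% of all 27305 genes of the table. It was in 9 of the 9 genes lower by the 1.5-fold rule that had a window, in 2 of the 4 higher and in 12 of the 17 others. GGGCGG was in 29 of the 30 (96.7%), against 48.3% of all genes. The E-box CACGTG was in 4 (13.3%), against 8.77% of all genes. TCACNCCAC, the only form of the sterol regulatory element that was searched, was in 1, SREBF2 (3.33%, against 1.39% of all genes). Other forms were not searched, so the count does not say how many of the genes lack such an element. In SREBF2 TCACNCCAC is shown in capitals with 10 bases on either side, because the gene encodes the factor that binds such elements. The stretch lies at chr22:41832962-41832990 (plus strand).
SREBF2: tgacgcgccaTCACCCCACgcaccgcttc
A match is a description of the letters and not of binding.

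The 4 genes that regulate the route had a median log2 fold of -0.28, and none of them passed either rule. Of all 12254 measured genes, 8903 were called in neither direction by the 1.5-fold rule. SREBF2, whose product drives the sterol genes, had 544 CPM in the 813 library and 751 CPM in the NT library (log2 fold -0.47, -0.50 to -0.43). SCAP, the escort of the SREBP proteins, had 121 CPM in the 813 library and 171 CPM in the NT library (-0.50, -0.57 to -0.43). Both lay on the lower side in the 813 library. INSIG1, the sterol-dependent retention protein and itself a known SREBP target, had 60.3 CPM in the 813 library and 55.3 CPM in the NT library, a log2 fold of 0.12 (0.01 to 0.23) that was -0.13 with the trend on GC content and length removed. SREBF1, whose product drives the fatty acid genes, had 565 CPM in the 813 library and 606 CPM in the NT library, a log2 fold of -0.10 (-0.14 to -0.07) that was 0.03 with plain total counts. The direction of SREBF1 thus turns with the scaling. Its 3′ exon record shares bases with RAI1, and SREBF1 had a log2 fold of -0.13 without it.

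Of the 4 fatty acid synthesis genes 2, the synthase and the acetate-activating enzyme, were lower by the 1.5-fold rule, against 9.85% of all measured genes. None was higher, against 17.5%. ACSS2, the cytosolic acetyl-CoA synthetase, had 87.5 CPM in the 813 library and 206 CPM in the NT library, a log2 fold of -1.24 (-1.31 to -1.16). FASN, fatty acid synthase, had 2046 CPM in the 813 library and 3671 CPM in the NT library (-0.84, -0.86 to -0.83). ACSS2 was lower by the 2-fold rule and FASN by the 1.5-fold rule. ACLY, ATP citrate lyase, the other cytosolic source of acetyl-CoA, had 528 CPM in the 813 library and 640 CPM in the NT library (-0.28, -0.31 to -0.24). ACACA, acetyl-CoA carboxylase, had 113 CPM in the 813 library and 125 CPM in the NT library (-0.15, -0.22 to -0.07). With the trend on GC content and length removed, ACACA had a log2 fold of -0.46 and FASN -0.64, so the gap between these consecutive steps depended on that choice.

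None of the 4 elongation and desaturation genes passed a rule, and 8903 of all 12254 measured genes were likewise uncalled by the 1.5-fold rule. SCD, the stearoyl-CoA desaturase, had 2217 CPM in the 813 library and 3163 CPM in the NT library (-0.51, -0.53 to -0.50), and it entered as lower by the 1.5-fold rule with that trend removed (-0.82). FADS2, the desaturase of the first step from essential fatty acids, had 3063 CPM in the 813 library and 4076 CPM in the NT library (-0.41, -0.43 to -0.40). Its chromosome 11 neighbour FADS1, which acts later on the same chain, had 836 CPM in the 813 library and 881 CPM in the NT library (-0.08, -0.10 to -0.05). The sign of FADS1 turned with plain total counts (0.06). With the trend on GC content and length removed these neighbours had like values, -0.18 for FADS1 and -0.15 for FADS2. ELOVL6, an elongase, had 139 pairs in the 813 library and 136 in the NT library (-0.04, -0.40 to 0.31), and its log2 fold was 0.09 with plain total counts.

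Of the 3 genes that store or move lipid, SOAT1 and LPIN1 were higher in the 813 library by the 2-fold rule, against 8.13% of all measured genes. None was lower, against 3.48%. SOAT1, which esterifies cholesterol for storage, had 19.2 CPM in the 813 library and 9.35 CPM in the NT library, a log2 fold of 1.04 (0.80 to 1.28). LPIN1, a phosphatidate phosphatase of triglyceride synthesis, had 28.2 CPM in the 813 library and 14.0 CPM in the NT library (1.01, 0.82 to 1.21), a call by the 2-fold rule that ended with DESeq2 size factors (0.997) and with upper-quartile factors (0.98). Both passed the 2-fold rule, and neither did with the trend on GC content and length removed. STARD4, a sterol carrier, had 50 pairs in the 813 library and 36 in the NT library, a log2 fold of 0.39 whose interval (-0.25 to 1.06) included 0.

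Levels are compared between genes in the authors' RPKM, which is scaled per length. FADS2 had the highest level of the 34 genes in both libraries, with 782 RPKM in the 813 library and 952 RPKM in the NT library. SCD came next with 326 RPKM in the 813 library and 425 RPKM in the NT library. FDPS ranked 3 in both libraries with 212 RPKM in the 813 library and 388 RPKM in the NT library. FASN and FDFT1 followed at ranks 4 and 5 in both libraries, at 194 RPKM each in the 813 library and at 319 and 307 RPKM in the NT library. The order of the 5 highest genes was therefore the same in both libraries. MVD differed most in rank, at rank 14 with 48.9 RPKM in the 813 library and at rank 10 with 128 RPKM in the NT library. The lowest was SC5DL in both libraries, with 0.519 RPKM in the 813 library and 0.438 RPKM in the NT library.

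**Figure D2:**
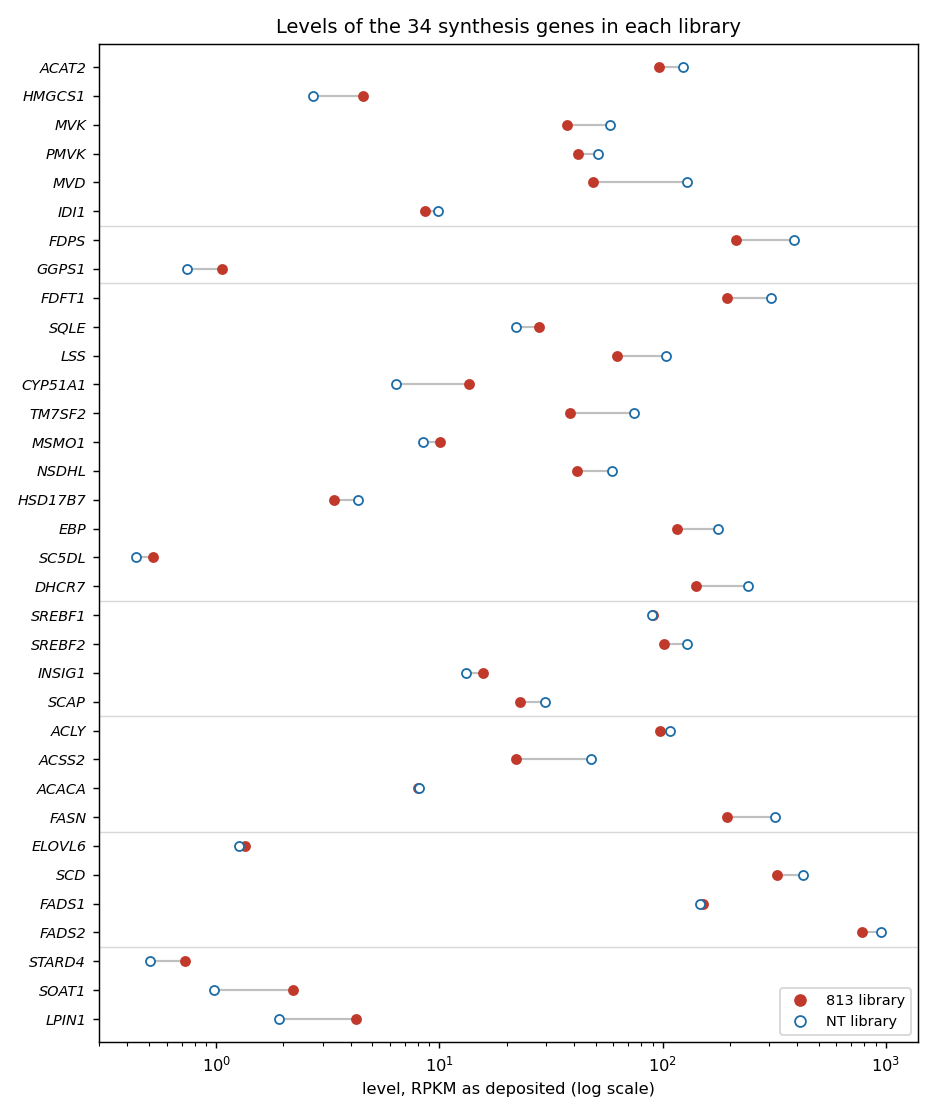
Level of each of the 34 genes as deposited RPKM on a log axis, with filled points for the 813 library and open points for the NT library, in the order of the route. Levels reach from under 1 RPKM (SC5DL) to 782 and 952 RPKM (FADS2), and the wide gaps are those of MVD, TM7SF2, ACSS2, SOAT1, LPIN1 and CYP51A1.

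No exon record of the 34 genes stood apart from its gene. Of 93138 exon records with 50 reads or more over both libraries, 391 (0.42%) departed 2-fold or more from the other records of the gene, without overlap of the intervals, and none of these lay in the 34 genes. All 10 records of MVD lay below 0, at -1.71 to -1.38 on the log2 scale. The 13 records of FDPS ran from -1.07 to -0.83 and the 10 records of TM7SF2 from -1.16 to -0.92. ACSS2 had 19 records with enough reads, all lower, from -1.53 to -0.97. Its 5′-most record had 2 reads in the 813 library and 9 in the NT library, too few to compare. SOAT1 had 13 such records (0.48 to 1.57) and LPIN1 15 (0.15 to 1.899), all above 0, although the intervals of 8 of the SOAT1 records and 5 of the LPIN1 records included 0. ACACA had 59 such records, 42 below and 17 above 0.

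**Figure D3:**
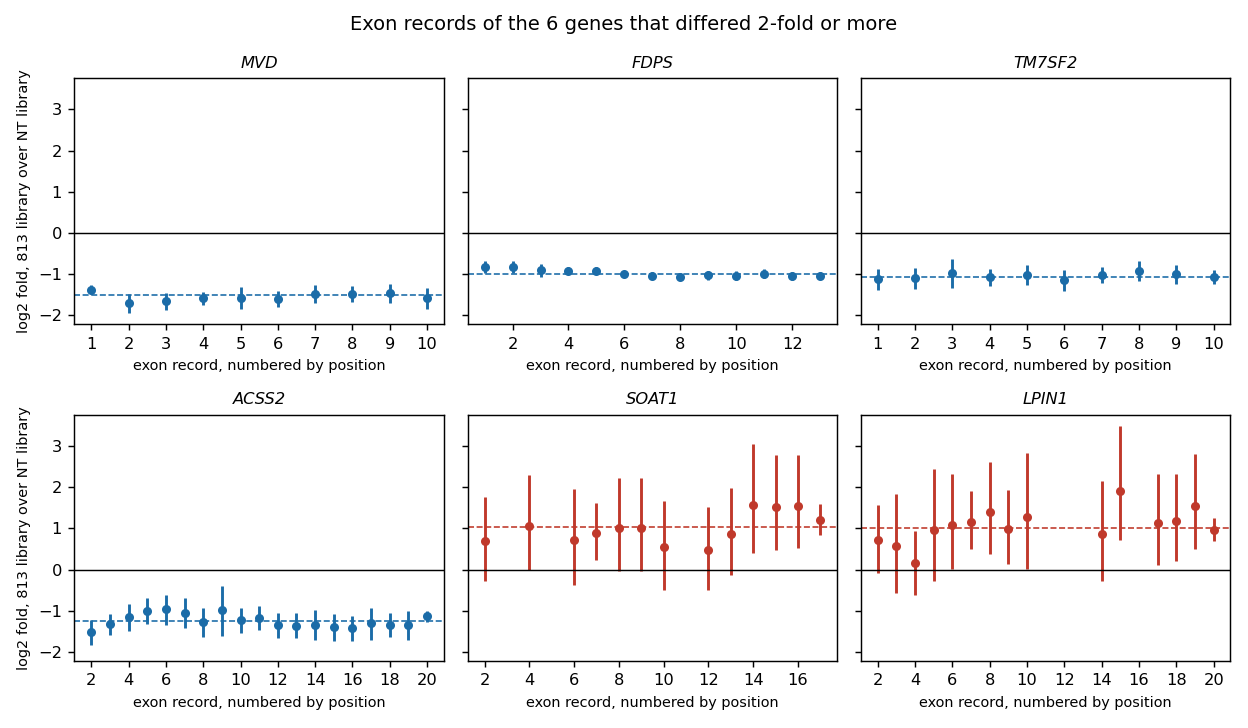
Log2 fold of each exon record with 50 reads or more (points) with its exact 95% counting interval (bars), 813 library over NT library, for the 6 genes past the 2-fold rule; records are numbered by position on the chromosome, and the dashed line is the gene's log2 fold. Every record shown of MVD, FDPS, TM7SF2 and ACSS2 lies below 0 and every record shown of SOAT1 and LPIN1 above it, although 8 SOAT1 and 5 LPIN1 intervals cross 0.

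The log2 folds of these genes also followed GC content and level. The 4 genes higher by the 1.5-fold rule had transcripts of 40.0 to 47.5% GC (median 40.8%), and the 11 lower ones 48.6 to 65.3% (median 58.2%), so these ranges did not overlap either. Of all measured genes under 44.7% GC, 27.3% were higher by that rule and 3.46% lower. At 54.9% GC or more 7.86% were higher and 19.3% lower. Spearman's rho between the log2 fold and GC content was -0.73 over the 34 genes, and -0.37 over 11023 measured genes with a GC value. With mean CPM it was -0.61 over the 34 genes, and -0.25 over the 12254 measured genes; all points share the same 2 libraries, so these are descriptions only. At 54.9% GC or more, 12 of the 34 genes had a median log2 fold of -0.81, against -0.25 for all 3675 measured genes in that range. There 7 of the 12 were lower by the 1.5-fold rule, against 19.3% of all. Under 44.7% GC 10 of the 34 genes had a median log2 fold of 0.26, against 0.32 for all 3674 measured genes there. Of these 10 genes 3 were higher by the 1.5-fold rule, against 27.3%, and none lower, against 3.46%. Between these bounds 12 genes had a median of -0.39, against 0.06 for all. At 200 CPM or more, 14 genes had a median log2 fold of -0.62 and, with TMM scaling, all of them lay below 0 (SREBF1 and FADS1 did not with plain total counts), against a median of -0.21 for all 1105 such genes, of which 74.9% lay below 0. Under 50 CPM 11 genes had a median log2 fold of 0.39, with 8 above 0 and 3 below. All 8429 measured genes under 50 CPM had a median of 0.17, and 40% of them lay below 0. These ranges were drawn after the values were seen. After a spline on GC content and length was taken out of the log2 folds, which held 15.5% of the variance over the measured genes with a GC value, 8 of the 11 lower calls of the 1.5-fold rule remained (those of EBP, MVK and NSDHL ended) and 3 of the 4 higher ones. HSD17B7 (-0.66) and SCD (-0.82) entered as lower, which made 10 lower calls in all, against 7.63% of the measured genes with a GC value. The 3 higher calls stood against 13.9%. MVD then had a log2 fold of -1.06 and ACSS2 -1.09, both still lower by the 2-fold rule, while FDPS (-0.68), TM7SF2 (-0.60), SOAT1 (0.65) and LPIN1 (0.73) no longer passed it.

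**Figure D4:**
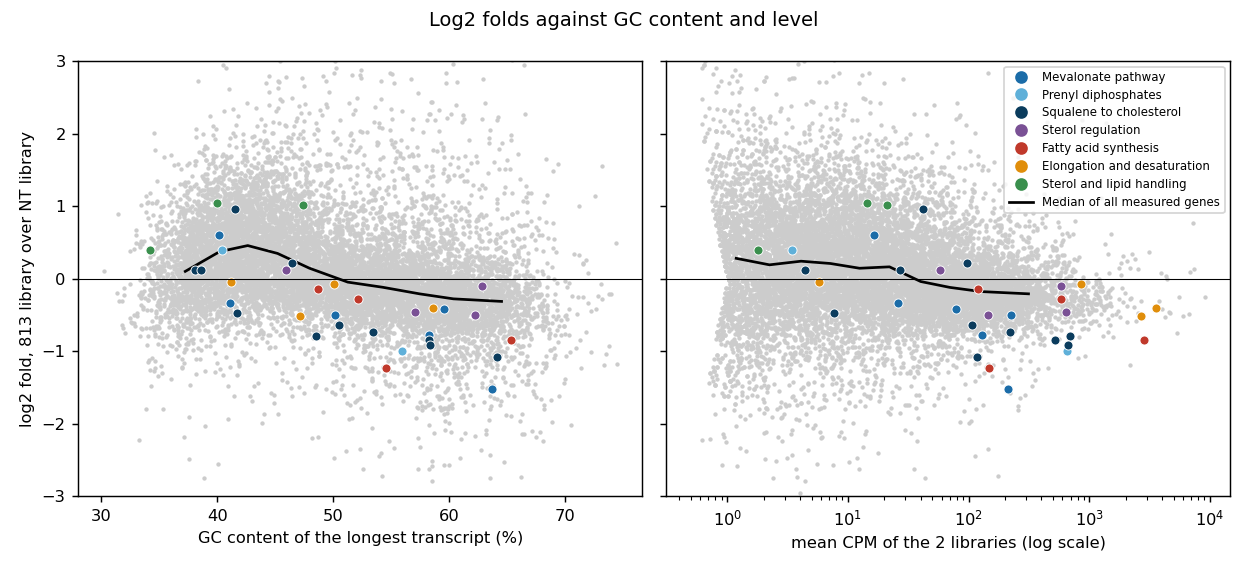
Log2 fold, 813 library over NT library, against GC content of the longest transcript (left) and mean CPM of both libraries on a log axis (right); grey points are all measured genes within the axis limits, coloured points the 34 genes by role, and the black line joins medians of all measured genes in bins along the x axis. The 34 genes fall with rising GC content and level, as does the line, and those of 200 CPM or more lie below 0 with this TMM scaling, although SREBF1 and FADS1 do not with plain total counts.

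Around the 34 genes, 64 further genes of the same pathways were read in 7 lists, and 55 of them were measured. By the 2-fold rule 4 were lower, or 7.27%, against 3.48% of all measured genes, and 2 were higher, or 3.64%, against 8.13%. By the 1.5-fold rule 10 were lower, or 18.2%, against 9.85% of all measured genes, and 11 were higher, or 20%, against 17.5%. Their median log2 fold was -0.08. The lists that stand next to the regulators held a pair of opposite differences. MBTPS1, the site-1 protease that makes the first cut in SREBP proteins, had 102 CPM in the 813 library and 205 CPM in the NT library (-1.005, -1.08 to -0.93). MBTPS2, the site-2 protease that makes the next cut, had 6.21 CPM in the 813 library and 2.76 CPM in the NT library (1.17, 0.74 to 1.62). Of the 8 genes in that list 2 were lower by the 1.5-fold rule, against 9.85% of all measured genes, and 3 were higher, against 17.5%. ABCG1, a sterol exporter and a known target of the oxysterol receptors, had 6.79 CPM in the 813 library and 20.6 CPM in the NT library (-1.60, -1.86 to -1.34). It was the only 1 of 6 measured transport genes called by either rule. That is 16.7% lower by the 1.5-fold rule, against 9.85% of all measured genes, and none higher, against 17.5%. The receptors NR1H2 and NR1H3 had log2 folds of -0.62 (-0.69 to -0.55) and -0.17 (-0.33 to -0.01). With the trend on GC content and length removed NR1H2 was at -0.23, NR1H3 at 0.07 and ABCG1 at -1.51.

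In the lists around fatty acids, FADS3, a desaturase-like gene beside FADS1 and FADS2, had 28.8 CPM in the 813 library and 66.3 CPM in the NT library (-1.20, -1.33 to -1.07). ELOVL4, an elongase of very long chains, had 93 pairs in the 813 library and 28 in the NT library (1.64, 1.03 to 2.32). MLXIPL, the carbohydrate-responsive factor ChREBP, had 215 pairs in the 813 library and 415 in the NT library (-1.02, -1.27 to -0.78). Like FDPS, MBTPS1 and MLXIPL sat near the 2-fold line. SLC25A1, the citrate exporter that supplies ACLY, had 242 CPM in the 813 library and 448 CPM in the NT library (-0.89, -0.93 to -0.84), past the 1.5-fold rule only. Of the 8 measured genes of its list 4 were lower by that rule, against 9.85% of all measured genes, and 2 higher, against 17.5%. The 2 were ACSL1 (1.15, 0.42 to 1.96) and ACSL3 (0.81, 0.56 to 1.06). Of the 8 measured elongases and desaturases 1 was lower and 3 were higher. The 3 were ELOVL4, ELOVL5 (0.98, 0.82 to 1.15) and DEGS1 (0.66, 0.58 to 0.74). SLC25A1, ACSL1, ACSL3, ELOVL5 and DEGS1 were named with their values in view. After the GC and length trend was taken out, the log2 folds were -0.89 for FADS3, 1.46 for ELOVL4, -0.68 for MLXIPL and -0.42 for SLC25A1, so FADS3 and MLXIPL no longer differed 2-fold and SLC25A1 no longer 1.5-fold. ACSL1 was then at 0.82, ACSL3 at 0.63, ELOVL5 at 0.64 and DEGS1 at 0.42, the last of these short of 1.5-fold.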

How the data were processed

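Poly(A)-selected RNA of 2 A673 libraries, 1 per group, was sequenced. Per the submitters' processing notes, CASAVA 1.9, TopHat2 2.0.6 and HTSeq were used on hg19, with no role or order given; the sources used here do not name the annotation, the strand setting or the handling of multiply mapped reads. Reads of overlapping genes, and of copies such as the known pseudogenes of FDPS and HSD17B7, are therefore uncertain. Per the file headers, the authors deposited raw counts per gene and per exon record, and RPKM values, that is, reads scaled by gene length and by library total. All gene counts were even (0 odd values), so a count was halved to pairs; exon reads were halved for folds and intervals. Of 23398 gene rows 46 repeated rows were dropped. Scaling was TMM over the whole table (edgeR 4.0.16, R 4.3.3; factors 1.05 in the 813 library and 0.954 in the NT library), and log2 folds used a prior of 0.5 pairs. Intervals were exact conditional binomial ones (scipy 1.17.1, Python 3.11.15); PCR copies are not independent molecules, and a single library shows no spread between cultures, so no p-value was computed. On simulated counts with counting noise alone and 11922 unchanged genes, the 1.5-fold rule called 16 of the unchanged genes and 46 of 50 genes changed 2.5-fold; the 2-fold rule called 1 and 42. Of 50 genes changed 1.5-fold the 1.5-fold rule called 24 and the 2-fold rule 0. GC content came from the longest GENCODE 29 transcript of a symbol (90% of measured genes, all 34 members). Promoter windows were matched by symbol in the RefSeq table. The members, lists and rules were chosen with earlier results of these data known. Named are all members, and from the wider lists the genes past the 2-fold rule, unless said otherwise. Groups came from the titles. Alternatives covered scaling (DESeq2 1.42.0 among them), unit, filter, prior, GC trend and exon sums.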

Additional observations from a re-analysis of the deposited data

How the results depend on the processing

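Plain total counts moved log2 folds up by a median of 0.14 over all measured genes relative to TMM. With plain total counts 2 members were lower by the 2-fold rule, against 2.46% of all measured genes. The median of the members was then -0.28, against 0.15 over all measured genes. With the 20 most abundant genes left out of the library size 2 were lower, against 2.52%, and the medians were -0.29 and 0.14. With the authors' RPKM 2 were lower, against 2.55%, and the medians were -0.29 and 0.14. In each of these settings FDPS and TM7SF2 ended as 2-fold calls, CYP51A1 entered, and SREBF1, ELOVL6 and FADS1 turned in sign; with the trend removed PMVK, SC5DL, SREBF1 and INSIG1 did. With DESeq2 size factors 1 member was higher by the 2-fold rule, against 7.89% of all measured genes. With upper-quartile factors 1 was higher too, against 7.56%. With the trend on GC content and length removed, 0 members were higher by the 2-fold rule and 2 lower. Of the 11023 measured genes with a GC value 6.11% were then higher and 2.49% lower. The median of the members was -0.33, against 0.06 over those genes. By the 1.5-fold rule 10 or 11 members were lower and 3 or 4 higher in every setting run. Of all genes compared, 6.27% to 10.9% were lower by that rule across the settings and 12.9% to 22.4% higher. The members called were not always the same ones: with the trend removed EBP, MVK and NSDHL ended and HSD17B7 and SCD entered as lower. Counts as deposited, either filter and a prior of 5 pairs changed no call, and sums of exon records left every member within its interval (ELOVL6, uncalled, turned to 0.03). By those sums FDPS, at -0.997, was short of 2-fold. No called member turned in sign. GGPS1, MSMO1, SC5DL, ELOVL6 and STARD4 had intervals that included 0, so their differences were not detectable at this depth. No paired analysis was possible because each group has 1 library, and for the same reason no library could be left out.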

Other observations

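ACADVL, the very long chain acyl-CoA dehydrogenase of mitochondria, which breaks down fatty acids, had 340 CPM in the 813 library and 515 CPM in the NT library (log2 fold -0.60, -0.64 to -0.56), and was lower by the 1.5-fold rule; with the trend on GC content and length removed its log2 fold was -0.26, short of 1.5-fold. Genes that use prenyl groups had a median log2 fold of 0.24 over 9 measured genes. Only PDSS1, a subunit of the synthase for the coenzyme Q side chain, was higher by the 1.5-fold rule (0.59, 0.28 to 0.90). That is 11.1% of the 9, against 17.5% of all measured genes, and none was lower, against 9.85%. Of 7 measured glycerolipid genes 2 were higher by the 1.5-fold rule, against 17.5% of all measured genes, the acyltransferase GPAM (1.12, 0.48 to 1.83) and LPIN2, a relative of LPIN1 (0.77, 0.62 to 0.92), and none was lower, against 9.85%. With that trend removed PDSS1 (0.41) and LPIN2 (0.54) were short of 1.5-fold and GPAM was at 0.70. These genes were named after their values were seen.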
